A study of Homo sapiens with 12 samples.

Results

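The transcriptome of HCT116 cells depleted of Wip1 was set directly against that of HCT116 cells in which ATM was inhibited, on 6 of the study's 12 Illumina bead arrays. HCT116 is an established cell line from a human colorectal carcinoma. The arrays were chosen by their labels alone. In the first group, Wip1SH, the cells carried a short hairpin RNA (shRNA) against Wip1 and received no inhibitor (3 arrays). In the second, WT+ATMi, cells without the hairpin received an ATM inhibitor at 10 µM for 3 days, with the inhibitor renewed daily (3 arrays). Untreated cells without the hairpin (WT) and Wip1-depleted cells given the inhibitor (Wip1SH+ATMi), with 3 arrays each, entered the same fit and are given beside the comparison. All cells grew in DMEM with fetal calf serum. The labels name neither the inhibitor compound nor a vehicle, hold no group with a control hairpin, and do not say whether the depleted cells were a clone or a pool. Effects of the hairpin as such, of clonal origin and of a solvent therefore cannot be told apart from those of Wip1 loss and of ATM inhibition. The design text calls the replicates biological, and the p-values below measure the spread between these arrays.

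Wip1, the product of PPM1D, is a serine/threonine phosphatase whose gene is switched on by p53. ATM is a kinase that becomes active at breaks in DNA and phosphorylates p53, the checkpoint kinase CHK2 and the histone variant H2AX, among many other proteins. Wip1 takes phosphate off several of the same proteins, including ATM itself, and so closes the loop after damage. Loss of the phosphatase and inhibition of the kinase thus bear on the same phosphorylation sites from opposite sides. The comparison asks which transcripts separate the states that result, and by how much.

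PPM1D, which checks the labels, had a log2 intensity of 8.74, 8.43 and 8.87 on the 3 Wip1SH arrays and of 10.62, 10.62 and 10.68 on the 3 WT+ATMi arrays. All Wip1SH arrays lay below all WT+ATMi arrays, and the mean was 3.89-fold lower in Wip1SH (log2 difference -1.96 ± 0.10, SE; adjusted p = 3.01e-07, limma). The ATM transcript, whose protein the inhibitor targets, was at 7.70 ± 0.08 (SD, n = 3) in Wip1SH and 7.997 ± 0.15 in WT+ATMi. Its difference of -0.30 had a 95% confidence interval of -0.68 to 0.08 and did not pass the threshold (adjusted p = 0.215). The arrays measure RNA, so the activity of the kinase and the amount of Wip1 protein were not measured here.

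Before normalization, the Wip1SH arrays had a mean signal of 613 ± 61.7 (SD, n = 3) and the WT+ATMi arrays of 689 ± 31.5. Between 18568 and 18961 probes were detected on the Wip1SH arrays and between 18723 and 19654 on the WT+ATMi arrays. The group with the inhibitor was thus the brighter one. When each array's count of detected probes entered the fit, 1374 genes were called higher and 1822 lower in Wip1SH, against 1748 and 2262 without it. Across the genes tested, arrays correlated at 0.993 to 0.994 within Wip1SH, 0.994 to 0.995 within WT+ATMi and 0.979 to 0.981 between the groups. Of 8 markers of colon epithelium, EPCAM, KRT8, KRT18, KRT19 and CDH1 were detected on all 6 arrays and CLDN4 on 5, while VIL1 and CDH17, 2 markers of differentiated intestine, were detected on none. The leukocyte markers PTPRC and CD3E and the endothelial markers PECAM1, VWF and CDH5 were detected on none of the 6. The hepatocyte marker ALB was detected on 4 of the 6. Of 4 fibroblast markers, COL1A1 was detected on all 6 arrays, at 6.59 in Wip1SH and 6.996 in WT+ATMi, DCN on 2, and COL1A2 and COL3A1 on none.

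Many of the detected genes separated the groups, mostly by small amounts. Of 11785 genes tested, 1748 (14.8%) were higher and 2262 (19.2%) were lower in Wip1SH than in WT+ATMi at an adjusted p under 0.05 in limma, with Benjamini-Hochberg adjustment over all genes. The median size of a called difference was 0.48 on the log2 scale, and 260 genes differed at least 2-fold, 86 higher and 174 lower. The balance of the calls depended on how arrays were scaled. With quantile-normalized values 43.6% of calls were higher in Wip1SH. With equal array medians over all probes, which moved the median difference of all genes from -0.01 to -0.16, the share was 16.1% (560 higher and 2909 lower). With equal medians over the tested probes it was 56.5% (2414 higher and 1855 lower). The arrays of the groups did not overlap for 2669 genes higher in Wip1SH (22.6%) and 3091 lower (26.2%). Of the same genes, 16.8% were called above and 15.4% below WT in Wip1SH, and 15.4% above and 10.0% below WT in WT+ATMi. Both of those contrasts use the same 3 WT arrays, so values against WT are given below side by side and not compared as if independent. In RNA from whole cultures, a smaller share of cells with a transcript and less of it per cell cannot be told apart.

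**Figure D1:**
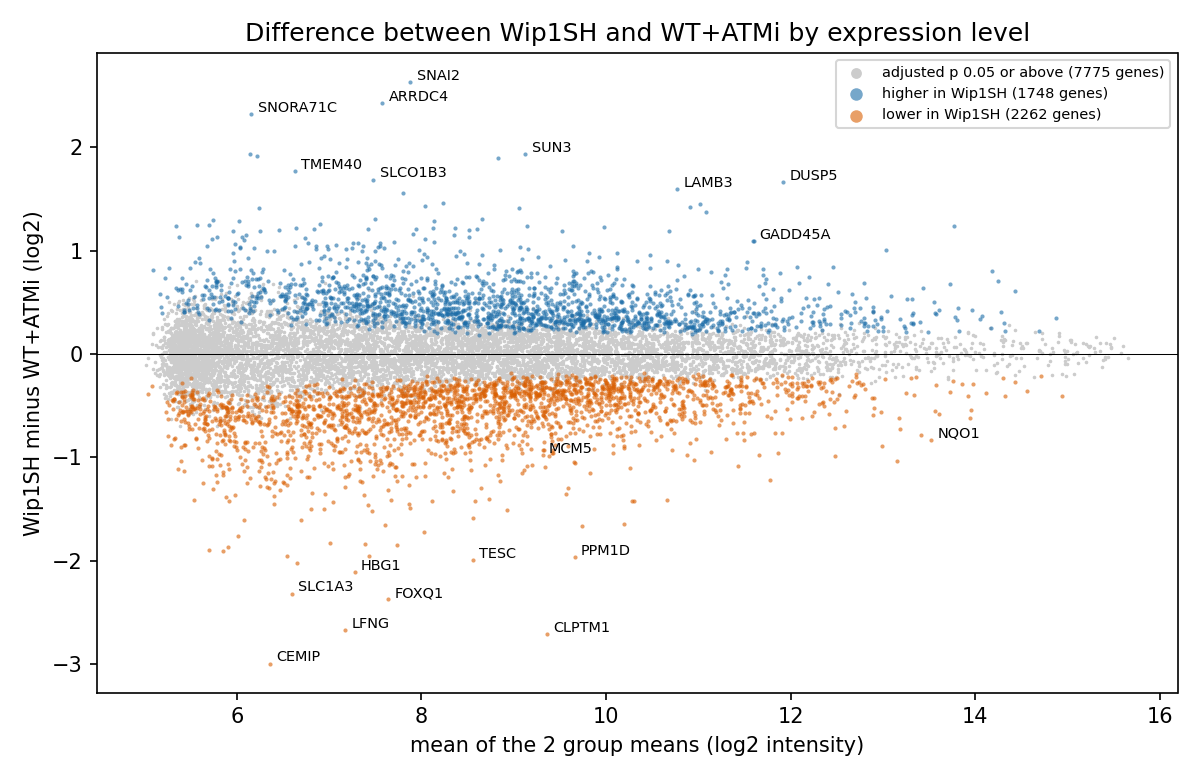
Log2 difference between Wip1SH and WT+ATMi (vertical axis) against the mean of the group means (horizontal axis, log2 intensity) for 11785 genes, each point a gene. The 1748 genes called higher in Wip1SH are blue, the 2262 called lower are orange and the others grey; SNAI2 at 2.63 and CLPTM1 at -2.71 have the largest differences among genes detected in both groups, and CEMIP at -2.99 was undetected in Wip1SH, so that its point is not a measured difference.

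SNAI2, encoding the transcription factor SLUG that represses epithelial genes, had the largest positive difference. Its log2 intensity was 9.21, 9.19 and 9.19 on the Wip1SH arrays against 6.71, 6.31 and 6.67 on the WT+ATMi arrays, a 6.19-fold difference (log2 2.63 ± 0.12, SE; adjusted p = 7.38e-08). The 3 Wip1SH values lay close together and far above the others, and a dimmer SNAI2 probe differed by 1.63 in the same direction. ARRDC4, an arrestin-domain gene that responds to glucose through the MondoA and ChREBP factors, read 8.71, 8.83 and 8.82 against 6.57, 6.40 and 6.12. This was a 5.36-fold difference (log2 2.42 ± 0.11; adjusted p = 1.36e-07), with a dimmer probe at 2.06. DUSP5, a nuclear phosphatase that inactivates ERK, was the brightest of the 15 genes with the largest positive differences. It stood at 12.68, 12.75 and 12.83 in Wip1SH and at 11.12, 11.12 and 11.03 in WT+ATMi, 3.17-fold apart (log2 1.66 ± 0.09; adjusted p = 2.73e-07).

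The others of these 15 genes are of several kinds, and no shared function was tested. LAMB3, a chain of laminin-332 in the epithelial basement membrane, read 11.64, 11.60 and 11.46 in Wip1SH against 9.91, 10.08 and 9.93 in WT+ATMi (3.02-fold). A dimmer LAMB3 probe, detected on 6 of the 12 arrays, differed by 0.57. GAST, the gene for the hormone gastrin, was at 7.13, 7.16 and 7.23 against 5.001, 5.30 and 5.48. It was detected on 1 of the 3 WT+ATMi arrays, so no fold is given. SLCO1B3, an organic anion transporter, differed 3.22-fold and LAT2, an adaptor protein of leukocyte signalling, 2.76-fold. The adjusted p-values of these genes in limma were 1.69e-06, 5.90e-05, 2.13e-05 and 7.47e-07 in this order. Non-overlapping arrays and an adjusted p under 0.05 were conditions for a place among the 15 genes, so neither is a separate result. SUN3, which encodes a protein of the nuclear envelope known from male germ cells, differed 3.81-fold, and C1orf116 3.72-fold, with dimmer C1orf116 probes at 0.85 and 0.96 on the log2 scale. TMEM40, a membrane protein gene, differed 3.40-fold. PTPDC1, a phosphatase gene linked to cilia, differed 2.70-fold.

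Among these 15 genes, SNORA71C and ARL14 were not detected on any WT+ATMi array. SNORA71C, a small nucleolar RNA that guides pseudouridylation, was at least 3.54-fold higher in Wip1SH (7.27, 7.20 and 7.49 against 4.998, 4.96 and 5.04; adjusted p = 3.70e-08). ARL14, a small GTPase of the ARF family, was at least 3.06-fold higher (adjusted p = 1.31e-05). FAM25A, 2.95-fold higher, and SNORA71C belong to families of near-identical copies, so that their probes may read more than the gene named.

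Of the genes detected in both groups, CLPTM1, a multipass membrane protein gene, had the largest negative difference. It read 7.80, 8.27 and 7.97 in Wip1SH against 10.60, 10.87 and 10.69 in WT+ATMi, which is 6.53-fold lower (log2 -2.71 ± 0.11, SE; adjusted p = 4.76e-08). FOXQ1, a forkhead transcription factor gene known as a Wnt target in colorectal carcinoma, was at 6.51, 6.35 and 6.50 against 8.75, 8.79 and 8.94 (5.17-fold lower; log2 -2.37 ± 0.09; adjusted p = 3.70e-08). For both genes the ranges of the groups were more than 2 log2 units apart. LFNG, the Lunatic fringe glycosyltransferase that modifies Notch receptors, read 5.47, 5.77 and 6.29 against 8.44, 8.46 and 8.63 (log2 -2.67 ± 0.16; adjusted p = 8.36e-07), and 2 of the 3 Wip1SH arrays detected it. A dimmer LFNG probe, detected on 3 of the 12 arrays, differed by -0.23.

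CEMIP, a gene for a protein that breaks down hyaluronan, read 5.07, 4.71 and 4.82 on the Wip1SH arrays, none of which detected it, and 7.81, 7.89 and 7.88 on the WT+ATMi arrays. It was thus at least 4.99-fold lower in Wip1SH (adjusted p = 3.70e-08). SLC1A3, a glutamate transporter gene, went undetected in all of Wip1SH, which puts it at least 4.64-fold lower than in WT+ATMi (5.47, 5.47 and 5.38 against 7.80, 7.78 and 7.68; adjusted p = 3.70e-08). RPS6KA2, encoding the ribosomal S6 kinase RSK3, SCARA3, a scavenger receptor gene, and AKR1C3, an aldo-keto reductase gene, were likewise undetected in Wip1SH. They were at least 2.40-fold, 2.15-fold and 2.45-fold lower. AKR1C3 has close relatives in its family, and its probe may read them too. TESC, which encodes a calcium-binding protein, was 3.98-fold lower, UNC5A, a netrin receptor gene, 3.87-fold, and LEMD1 3.87-fold. TSPAN18, a tetraspanin gene, was 4.06-fold lower. TSPAN18 and UNC5A were each detected on 2 of the 3 Wip1SH arrays. The fetal globin genes HBG1 and HBG2, near-identical copies whose probes may share signal, read 6.05, 6.35 and 6.28 against 8.18, 8.45 and 8.36 and 6.63, 6.87 and 6.93 against 8.76, 8.70 and 8.52. Together with CEMIP, CLPTM1, LFNG, FOXQ1 and PPM1D these were the 15 genes with the largest negative fitted differences.

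Set beside WT, the leading genes fell into several patterns. The direct difference is the WT contrast of Wip1SH minus that of WT+ATMi, so a large value favours genes that lie on either side of WT. For SNAI2, Wip1SH was 1.57 ± 0.12 (SE) above WT and WT+ATMi 1.06 below (adjusted p = 7.73e-06 and 0.000154). FOXQ1 was at -1.06 and 1.32 against WT and C1orf116 at 0.83 and -1.07, each past the threshold in both contrasts. CEMIP was at 1.38 in WT+ATMi and, undetected in Wip1SH, at least 1.91-fold below WT there. Other genes passed the threshold only in Wip1SH against WT. CLPTM1 was at -2.92 in Wip1SH and -0.21 in WT+ATMi (adjusted p = 6.01e-08 and 0.192), TESC at -1.80 and 0.19, DDIT3 at 1.29 and -0.16, and PTPDC1 at 1.35 and -0.08. LEMD1 was at -0.45 in Wip1SH (adjusted p = 0.0672) and 1.497 in WT+ATMi (adjusted p = 0.000244). DUSP5, past the threshold in both, was at 0.44 and -1.22. SLC1A3 was lower than WT in both groups, at -0.44 in WT+ATMi and, undetected in Wip1SH, at least 6.30-fold there.

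**Figure D2:**
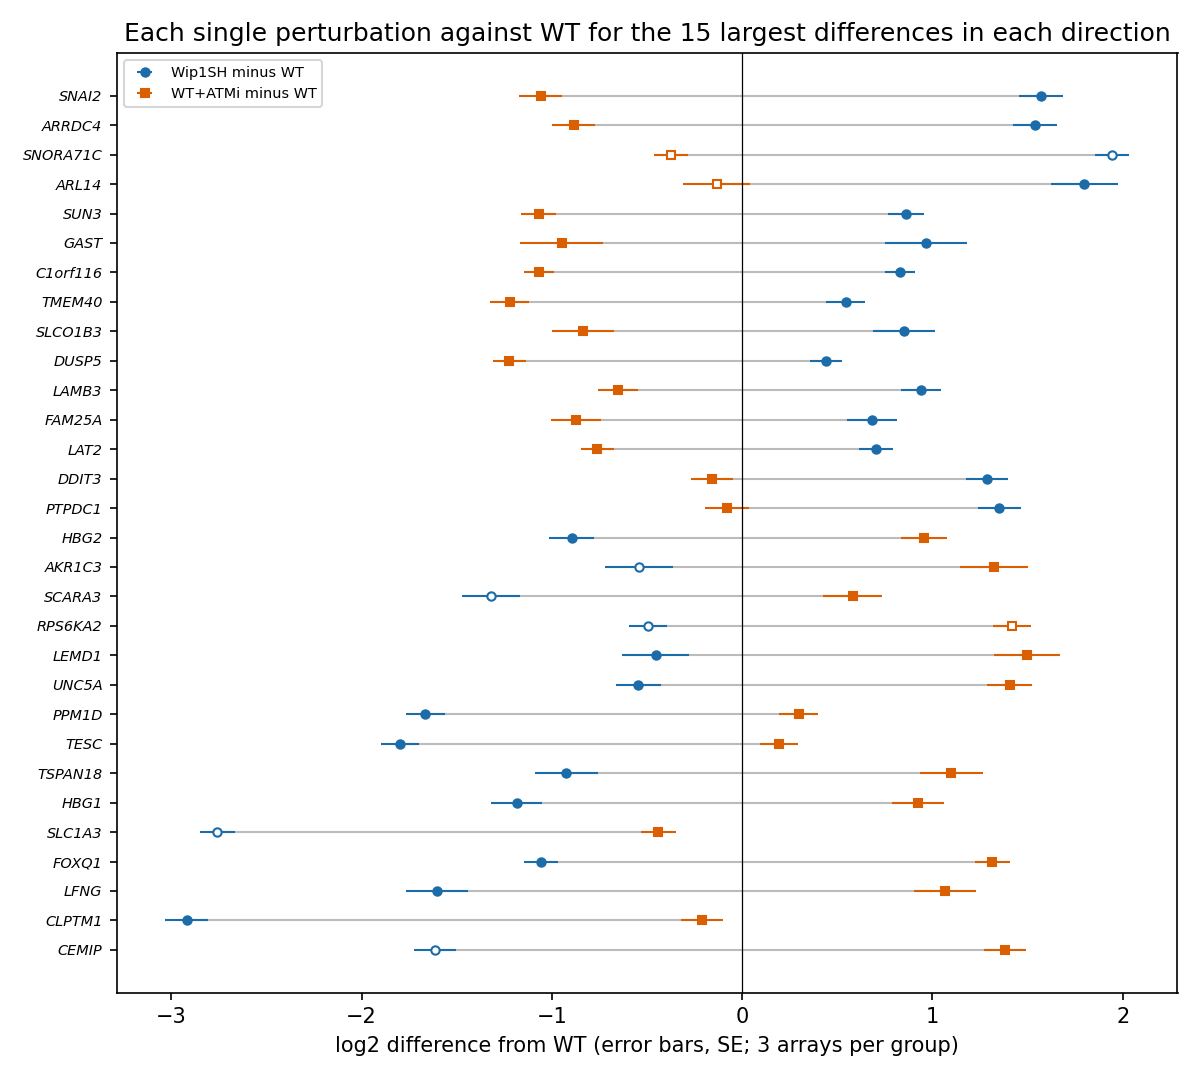
Log2 difference from WT of Wip1SH (blue circles) and of WT+ATMi (orange squares) for the 15 genes with the largest positive (upper part) and negative (lower part) differences between the groups; error bars are SE, with 3 arrays per group and shared WT arrays, and open symbols mark contrasts with a group in which no array detected the gene, which are not measured differences. SNAI2 lies at 1.57 and -1.06, whereas CLPTM1 lies at -2.92 and -0.21.

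**Figure D3:**
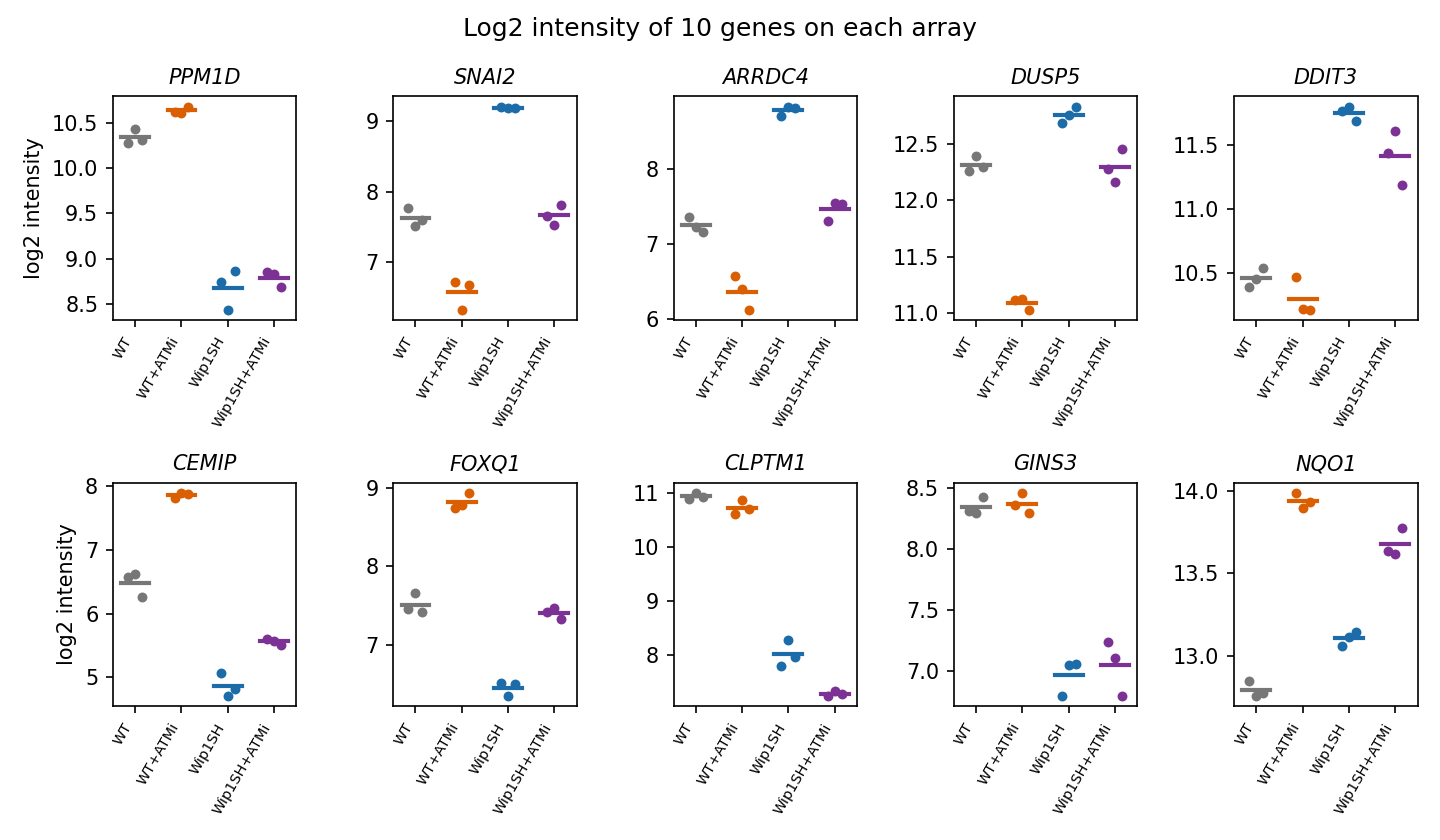
Log2 intensity of 10 genes on each of the 12 arrays (points) with group means (bars); each panel has its own vertical axis, which does not start at 0. The genes were picked from those named in the text, most of them for large differences without overlap. That the 3 Wip1SH points lie clear of the 3 WT+ATMi points in all 10 panels therefore follows largely from the choice. PPM1D has means of 8.68 and 10.64. Of all genes tested, 22.6% lay clear above and 26.2% clear below in Wip1SH.

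Genes activated by p53 were mostly higher in Wip1SH than in WT+ATMi. Of 42 listed, 36 were measured, of which 22 (61.1%, against 14.8% of all genes) were higher and 2 lower, with a median difference of 0.38 where the median of all genes was -0.01. The count of 22 fell to 10 with equal array medians over all probes, where the list median was 0.18. Among genes of cell cycle arrest, 7 of 9 were higher. GADD45A, which binds PCNA and CDK1, read 12.09, 12.20 and 12.14 against 11.06, 10.95 and 11.12, a 2.14-fold difference (adjusted p = 2.65e-06), with a dimmer probe at 1.26 on the log2 scale. All Wip1SH values exceeded all WT+ATMi values. SESN2, a sestrin that restrains mTORC1, was 1.91-fold higher (adjusted p = 0.00019). Of 12 genes of cell death, 8 were higher. Among them were the death receptor gene TNFRSF10A, 1.80-fold (10.55, 10.60 and 10.48 against 9.67, 9.70 and 9.73; adjusted p = 1.03e-05), and PMAIP1, encoding the BH3-only protein NOXA, 1.70-fold (adjusted p = 0.000419).

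Not all p53 targets followed. CDKN1A, the gene for the CDK inhibitor p21, was very bright in both groups, at 14.89, 14.86 and 14.88 in Wip1SH and 15.22, 14.97 and 15.08 in WT+ATMi. Its difference of -0.21 (95% interval -0.38 to -0.04) missed the threshold at an adjusted p of 0.0566, and a much dimmer CDKN1A probe differed by 0.61 in the other direction. MDM2, the ubiquitin ligase that degrades p53, was at 0.39 (95% interval 0.04 to 0.73; adjusted p = 0.0779). The 2 genes called lower were PPM1D itself and GDF15, a secreted stress cytokine. GDF15 was higher than WT in both groups, by 0.53 in Wip1SH and 0.89 in WT+ATMi. Its direct difference of -0.36 (adjusted p = 0.0121) was not called without WT+ATMi replicate 1 (-0.31) or with detected probes as a covariate (-0.29). CCNG2, an unusual cyclin, was likewise above WT in both, at 0.90 and 1.17, and differed by -0.27 with an adjusted p of 0.181.

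In the ATM and checkpoint circuit, 4 of 27 measured genes were higher in Wip1SH (14.8%, the same share as of all genes) and 9 lower (33.3%, against 19.2%), the latter including PPM1D itself. The list median was -0.24, and -0.41 with equal array medians over all probes. The kinase genes CHEK1, the effector kinase of ATR, and PRKDC, the catalytic subunit of DNA-PK, were lower by log2 differences of -0.84 and -0.65. The CDC25A and CDC25B phosphatases, which activate CDKs, were at -0.83 and -0.75. The helicase BLM was at -0.61. Higher were XRCC4 and LIG4, partners in end joining, at 0.80 and 0.51, the histone gene H2AX at 0.62, and MDM4, an inhibitor of p53, at 0.82. Against WT, XRCC4 was at -0.24 in Wip1SH (adjusted p = 0.406) and at -1.03 in WT+ATMi, where 2 of the 3 arrays detected it. The MDM4 call was lost without WT+ATMi replicate 1 (0.65), WT+ATMi replicate 2 (0.71) or Wip1SH replicate 1 (0.70).

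Transcription factors and effectors of the ATF4 pathway were higher in Wip1SH. ATF4 is a factor whose translation increases when eIF2α is phosphorylated, and its targets supply amino acids, load tRNAs and, under lasting stress, favour cell death. Of 36 measured genes, 20 were higher (55.6%, against 14.8% of all genes) and 3 lower, with a median of 0.37. With equal array medians over all probes the count was 8 and the median 0.17. ATF4 itself did not pass the threshold (0.12 ± 0.08, SE; adjusted p = 0.292). DDIT3, encoding the factor CHOP, read 11.77, 11.80 and 11.68 against 10.47, 10.22 and 10.21 (2.72-fold; adjusted p = 3.99e-06), and ATF3 read 11.82, 11.80 and 11.69 against 10.36, 10.34 and 10.50 (2.58-fold; adjusted p = 3.99e-06). In both, the lowest Wip1SH array was over 1 log2 unit above the highest WT+ATMi array. CHAC1, which degrades glutathione, was 2.11-fold higher, CREBRF 1.79-fold and CEBPG, a partner of ATF4, 1.74-fold. ASNS, asparagine synthetase, was 1.44-fold higher (13.49, 13.58 and 13.69 against 13.09, 13.02 and 13.06; adjusted p = 0.000189). Lower were NUPR1, PHGDH and CTH, at -0.60, -0.56 and -0.54, of which NUPR1 is a small stress-induced nuclear protein, PHGDH catalyses the first step of serine synthesis and CTH makes cysteine. The NUPR1 call was lost under 6 of 24 alternatives, among them leaving out any WT+ATMi array or Wip1SH replicate 1 or 3 (adjusted p up to 0.112).

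Against WT, ATF3 lay on either side, at 0.74 in Wip1SH and -0.63 in WT+ATMi. CHAC1 was at 1.10 and 0.02, DDIT3 at 1.29 and -0.16, and CREBRF at 1.60 and 0.77. Chaperones of the endoplasmic reticulum went both ways, with 4 of 18 measured genes higher (22.2%, against 14.8% of all genes), 5 lower (27.8%, against 19.2%) and a median of -0.05. HSPA5, the chaperone BiP, was at 0.49, and EDEM1 and CRELD2 were at -0.56 and -0.55. The count of 4 was 2 without Wip1SH replicate 3 and 1 with equal array medians over all probes.

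Promoters of the ATF4-list genes were searched for the core of the C/EBP-ATF response element, to which ATF4 binds as a heterodimer. The letters TGATGNAA were searched on both strands from 250 bases before to 50 after the gene start, in RefSeq sequence of GRCh38.p14. They occurred in 8 of the 32 list members with a promoter sequence (25%) and in 173 of the 9438 tested genes with such a sequence (1.83%). A match is a description of the letters in this window and not evidence of binding. The sequences below are those of the 3 called members with a match and the largest differences, ATF3 at chr1:212565157-212565456 (plus strand), CHAC1 at chr15:40953221-40953520 (plus strand) and ASNS at chr7:97872359-97872658 (minus strand). Each is given 5′ to 3′ on the gene's strand, with the match in capitals.
ATF3: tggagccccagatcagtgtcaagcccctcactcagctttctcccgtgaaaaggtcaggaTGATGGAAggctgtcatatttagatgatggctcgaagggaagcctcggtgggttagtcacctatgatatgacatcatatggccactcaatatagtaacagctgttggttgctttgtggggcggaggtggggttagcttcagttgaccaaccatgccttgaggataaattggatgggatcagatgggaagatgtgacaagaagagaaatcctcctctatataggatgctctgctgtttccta
CHAC1: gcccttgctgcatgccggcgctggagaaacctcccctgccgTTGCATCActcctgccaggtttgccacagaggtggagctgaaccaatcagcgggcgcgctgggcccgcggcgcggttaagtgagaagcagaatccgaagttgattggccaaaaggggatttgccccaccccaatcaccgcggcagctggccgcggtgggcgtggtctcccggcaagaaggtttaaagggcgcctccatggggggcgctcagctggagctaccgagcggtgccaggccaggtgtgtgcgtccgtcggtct
ASNS: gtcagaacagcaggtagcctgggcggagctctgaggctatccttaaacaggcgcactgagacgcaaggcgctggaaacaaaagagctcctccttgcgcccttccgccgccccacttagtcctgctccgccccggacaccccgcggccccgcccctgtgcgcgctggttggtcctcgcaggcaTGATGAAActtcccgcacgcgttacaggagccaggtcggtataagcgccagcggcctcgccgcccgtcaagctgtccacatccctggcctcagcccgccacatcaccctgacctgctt

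Genes of DNA replication were lower in Wip1SH than in WT+ATMi. Of 36 measured, 24 (66.7%, against 19.2% of all genes) were lower and 0 higher, with a median of -0.43. Of the 16 genes of the replicative helicase and origin licensing, 13 were lower, including MCM2 to MCM7, the subunits of the helicase ring, at log2 differences of -0.50 to -0.98. GINS3, a subunit of the GINS complex that activates the helicase, read 6.79, 7.05 and 7.05 in Wip1SH and 8.36, 8.46 and 8.29 in WT+ATMi, 2.65-fold lower (adjusted p = 6.64e-06). MCM5 read 8.65, 8.94 and 8.89 against 9.76, 9.85 and 9.81 (1.97-fold lower; adjusted p = 1.32e-05). Neither gene's arrays overlapped. Of 20 genes of the fork and of nucleotide supply, 11 were lower, among them the polymerase δ subunit POLD1 at -0.75 and the clamp loader RFC5 at -0.65. The clamp PCNA and the ribonucleotide reductase subunit RRM2 did not pass the threshold, at 0.15 (adjusted p = 0.211) and -0.08 (adjusted p = 0.710).

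The replication genes differed mainly on the side of the depleted cells. MCM5 was at -1.05 in Wip1SH and -0.07 in WT+ATMi against WT, and GINS3 at -1.38 and 0.03. In Wip1SH against WT, 21 of the 36 were lower (against 15.4% of all genes) and 0 higher, and in WT+ATMi against WT 2 were higher and 0 lower, where 15.4% and 10.0% of all genes were. ORC1, the largest subunit of the origin recognition complex, was an exception, at -0.12 in Wip1SH and 0.52 in WT+ATMi.

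Mitotic genes followed the same direction. Of 42 measured, 34 were lower in Wip1SH (81%, against 19.2% of all genes) and 0 higher, with a median of -0.43. Among kinases and regulators 12 of 14 were lower, including PLK1, 1.67-fold (5.91, 5.72 and 6.05 against 6.64, 6.73 and 6.54; adjusted p = 0.000457), AURKB and AURKA at -0.58 and -0.47, and the transcription factor FOXM1 at -0.51. Among genes of the spindle, the kinetochore and mitotic exit 22 of 28 were lower. The kinesins KIFC1 and KIF23 had the largest differences, at 8.22, 8.15 and 7.998 against 9.04, 8.80 and 9.05 for KIFC1 (1.80-fold; adjusted p = 6.53e-05) and at 7.89, 7.69 and 7.64 against 8.55, 8.69 and 8.48 for KIF23 (1.78-fold; adjusted p = 6.38e-05). The lowest WT+ATMi array of each lay above the highest Wip1SH array. TPX2, a spindle assembly factor, was at 0.18 and not called (adjusted p = 0.144). MKI67, the proliferation marker Ki-67, went undetected in all of Wip1SH, at least 1.38-fold lower than in WT+ATMi, and in all of WT. Against WT, KIF23 was at -0.85 in Wip1SH and -0.02 in WT+ATMi.

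Mitotic promoters often hold a cell cycle homology region, bound by the DREAM and MuvB complexes, together with CCAAT boxes, bound by NF-Y. The letters TTTGAA were present in 24 of 35 list members with a promoter sequence (68.6%) and in 939 of 9438 genes (9.95%), and CCAAT in 27 of 35 (77.1%) and in 3482 of 9438 (36.9%), on either strand of the same window. Both were present in 19 of the genes called lower, a count that did not cover every chromosome. How many of all genes held both was not counted, so the 19 have no share to be set against. Shown in the same way, with both motifs in capitals, are the promoters of the 3 of these 19 with the largest differences, KIFC1 at chr6:33391573-33391872 (plus strand), KIF23 at chr15:69414099-69414398 (plus strand) and PLK1 at chr16:23678639-23678938 (plus strand).
KIFC1: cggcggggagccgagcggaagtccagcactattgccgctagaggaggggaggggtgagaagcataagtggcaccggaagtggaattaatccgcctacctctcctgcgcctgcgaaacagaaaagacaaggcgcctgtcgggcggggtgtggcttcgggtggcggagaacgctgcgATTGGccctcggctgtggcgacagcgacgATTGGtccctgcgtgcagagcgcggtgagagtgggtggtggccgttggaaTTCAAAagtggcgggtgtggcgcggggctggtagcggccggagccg
KIF23: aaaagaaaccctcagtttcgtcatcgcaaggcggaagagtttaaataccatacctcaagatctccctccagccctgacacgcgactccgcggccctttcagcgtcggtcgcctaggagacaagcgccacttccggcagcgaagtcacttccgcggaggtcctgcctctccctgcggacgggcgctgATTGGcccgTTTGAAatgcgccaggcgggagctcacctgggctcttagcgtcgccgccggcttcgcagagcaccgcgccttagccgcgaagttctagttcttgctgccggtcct
PLK1: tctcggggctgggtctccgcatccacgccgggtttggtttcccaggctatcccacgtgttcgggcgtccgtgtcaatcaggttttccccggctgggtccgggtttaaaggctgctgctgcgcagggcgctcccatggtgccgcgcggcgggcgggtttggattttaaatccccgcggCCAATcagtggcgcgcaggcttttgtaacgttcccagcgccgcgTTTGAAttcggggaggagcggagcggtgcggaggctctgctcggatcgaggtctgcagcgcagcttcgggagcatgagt

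**Figure D4:**
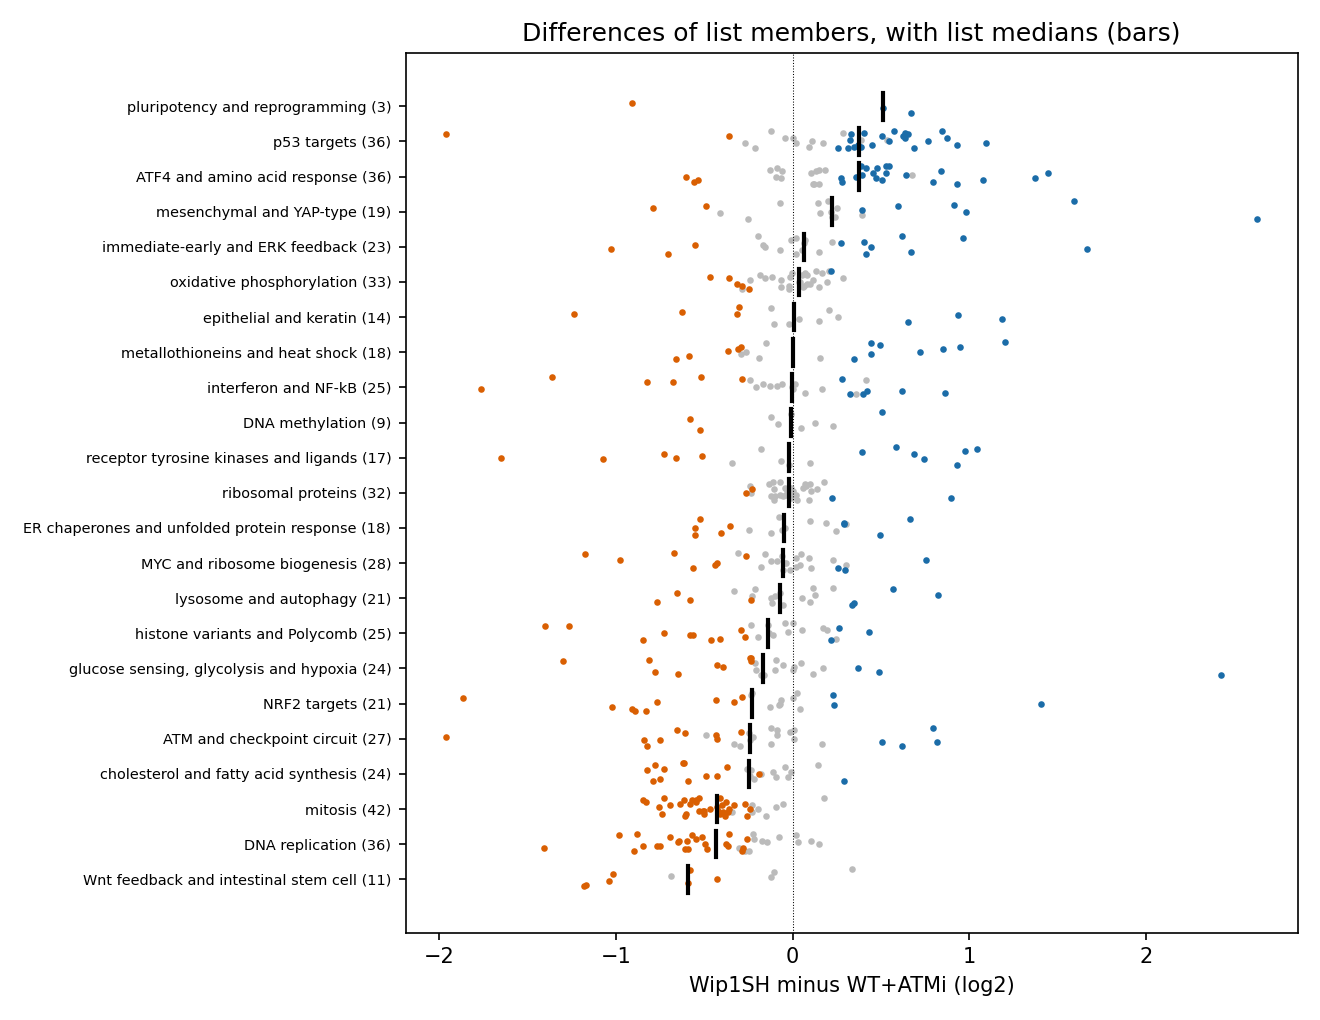
Log2 difference between Wip1SH and WT+ATMi (horizontal axis) of the measured members of 23 gene lists, with the number measured in brackets; points are genes (blue, called higher; orange, called lower; grey, not called) and black bars are list medians. The p53 and ATF4 lists have medians of 0.38 and 0.37, and the replication and mitosis lists of -0.43 each.

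Many redox and lipid genes were lower in Wip1SH than in WT+ATMi. NRF2 is a factor that activates antioxidant genes when its inhibitor KEAP1 is modified, and of 21 measured targets 9 were lower (42.9%, against 19.2% of all genes) and 3 higher, with a median of -0.23 that ranged from -0.41 with equal array medians over all probes to -0.13 with no detection filter. NQO1, a quinone reductase, read 13.06, 13.12 and 13.14 in Wip1SH against 13.99, 13.90 and 13.93 in WT+ATMi (1.78-fold lower; adjusted p = 9.31e-06). Against WT it was at 0.31 and 1.14, both past the threshold, so that NQO1 was above WT in both groups and by more in WT+ATMi. EPHX1, an epoxide hydrolase, was 2.03-fold lower in Wip1SH, the multidrug exporter ABCC3 1.88-fold and the pentose phosphate enzyme transketolase, TKT, 1.86-fold. HMOX1, heme oxygenase 1, did not pass the threshold, with a difference of -0.08 (95% interval -0.23 to 0.08; adjusted p = 0.449) at 0.98 and 1.06 above WT. Against WT, 7 NRF2 targets were higher and 4 lower in Wip1SH, where 16.8% and 15.4% of all genes were, and 9 were higher and 1 lower in WT+ATMi, where 15.4% and 10.0% were. AKR1B10, an aldo-keto reductase, went the other way (9.81, 9.66 and 9.82 against 8.26, 8.39 and 8.42; 2.65-fold higher in Wip1SH; adjusted p = 2.91e-07). The other genes called higher, GCLM and ME1, were both at 0.23. The count of 3 was 1 without any of the 3 WT+ATMi replicates or without Wip1SH replicate 1 or 2. The letters TGACNNNGC of the antioxidant response element were in 4 of 15 NRF2-list promoters (26.7%) and in 15.3% of all.

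Of 24 measured genes of cholesterol and fatty acid synthesis, 12 were lower in Wip1SH (50%, against 19.2% of all genes) and 1 higher, with a median of -0.25, which was -0.43 with equal array medians over all probes. INSIG1, which retains the SREBP complex in the endoplasmic reticulum, read 8.13, 8.11 and 8.30 against 8.95, 9.003 and 9.07 (1.77-fold lower; adjusted p = 0.000132). ACACA, which makes malonyl-CoA, was 1.68-fold lower and FASN, fatty acid synthase, 1.66-fold lower, at 12.82, 12.85 and 12.80 against 13.46, 13.55 and 13.65. HMGCS1, the HMG-CoA synthase of the mevalonate pathway, was 1.73-fold lower (adjusted p = 0.000508). All arrays of these genes separated. Against WT, 2 of the 24 genes were higher and 6 lower in Wip1SH, where 16.8% and 15.4% of all genes were. In WT+ATMi 10 were higher and 0 lower, where 15.4% and 10.0% of all genes were. INSIG1 was at -0.08 and 0.75 and ACACA at -0.12 and 0.63, while HMGCS1 was at -0.48 and 0.32. SC5D, a late enzyme of cholesterol synthesis, was the gene called higher, at 0.29. That call was lost under 5 of 24 alternatives, among them equal array medians over all probes (0.11; adjusted p = 0.601) and leaving out WT+ATMi replicate 1 (0.22) or Wip1SH replicate 1 (0.26) or 3 (0.29).

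Targets of Wnt signalling that feed back on the pathway were lower in Wip1SH. HCT116 cells carry an activating change in β-catenin, which keeps the pathway on in this line. Of 8 measured feedback genes 6 were lower (75%, against 19.2% of all genes) and 0 higher, and the median of the 11 measured genes of the wider list was -0.59. That median was -0.81 with equal array medians over all probes and -0.12 with no detection filter, which lets in list members that few or no arrays detected. AXIN2, a scaffold of the β-catenin destruction complex, read 7.54, 7.59 and 7.21 against 8.63, 8.65 and 8.62 (2.27-fold lower; adjusted p = 7.29e-06). RNF43, which removes Frizzled receptors, was 2.05-fold lower (6.89, 6.67 and 7.21 against 7.86, 8.02 and 8.01; adjusted p = 6.57e-05). NOTUM, an enzyme that inactivates Wnt proteins, and SP5, a transcriptional repressor, were undetected on all Wip1SH arrays and at least 1.77-fold and 1.69-fold lower. NOTUM and SP5 passed the detection filter only through arrays of other groups. The filter thus favoured their place among the lower feedback genes, and the share of 75% is to be read with that limit. RNF43 was at -1.01 in Wip1SH and 0.03 in WT+ATMi against WT, while AXIN2 lay on either side of WT at -0.69 and 0.49. CD44, a surface receptor counted with the stem cell genes, was at -0.59. LEF1 was at 0.33 and not called (adjusted p = 0.250), and 8 of the 19 listed genes, most of them stem cell markers, were not measured.

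**Figure D5:**
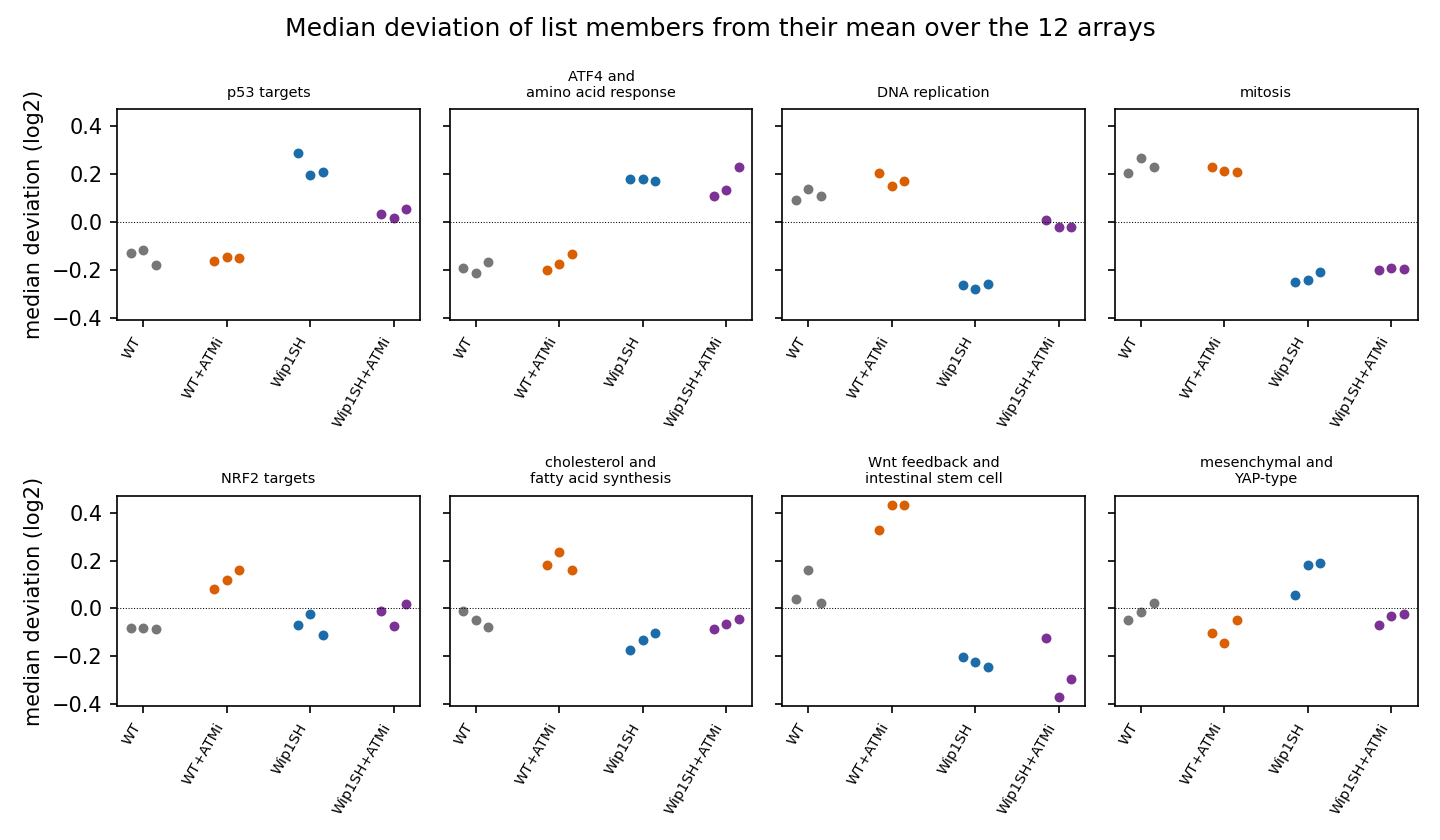
Median deviation of the members of 8 gene lists from their own mean over the 12 arrays (vertical axis, log2), one point per array, by group. The 3 Wip1SH points lie above the 3 WT+ATMi points for the p53, ATF4 and mesenchymal lists and below them for the other 5.

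Immediate-early genes split. EGR1, a zinc finger factor induced by ERK, was higher in Wip1SH (11.21, 11.29 and 11.17 against 10.57, 10.75 and 10.50; 1.54-fold; adjusted p = 0.000163), whereas FOSB was lower (5.66, 5.91 and 5.66 against 6.96, 6.44 and 6.91; 2.04-fold; adjusted p = 0.000994). FOS was also lower (-0.71, adjusted p = 0.0148), a call lost without WT+ATMi replicate 3 or with detected probes as a covariate (-0.62 in both). Against WT, EGR1 was at 1.58 and 0.96 and FOS at 1.01 and 1.72, so that both genes were higher than WT in both groups, in the opposite order. Of 23 measured genes of this list, 8 were higher (34.8%, against 14.8% of all genes) and 3 lower (13%, against 19.2%), with a median of 0.07. The count of 8 was 5 without Wip1SH replicate 2 and 4 with equal array medians over all probes, where the median was -0.12. Besides DUSP5, the MAP kinase phosphatase genes DUSP1, DUSP4 and DUSP6 were higher, at 0.97, 0.41 and 0.28.

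Ligands and receptors of growth factor signalling also went both ways, with 7 of 17 measured genes higher (41.2%, against 14.8% of all genes), 5 lower (29.4%, against 19.2%) and a median of -0.02. Higher were the ligand genes HBEGF (10.59, 10.54 and 10.70 against 9.57, 9.70 and 9.64; 1.97-fold; adjusted p = 3.14e-06), NRG1 (1.90-fold), PDGFB (1.61-fold), PDGFA and TGFA, the last not called with equal array medians over all probes (0.39). Lower were the receptor genes ERBB2 (8.07, 8.28 and 8.11 against 9.18, 9.25 and 9.25; 2.10-fold; adjusted p = 1.03e-05), ERBB3 (1.65-fold) and MET, and FGFBP1, a carrier of FGF ligands (3.15-fold). NRG1 encodes a ligand of ERBB3, and its transcript was at -0.44 in Wip1SH and -1.37 in WT+ATMi against WT, while ERBB3 was at 0.17 and 0.90. FGFR3 was higher by its brighter probe (2.06-fold; adjusted p = 9.31e-06), and its dimmer probe differed by 0.06. EGFR was at -0.02 and not called.

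Genes of the mesenchymal and YAP-type list were higher in 6 of 19 measured (31.6%, against 14.8% of all genes) and lower in 2 (10.5%, against 19.2%), with a median of 0.23. With equal array medians over all probes the median was 0.057. Besides SNAI2 and LAMB3, CCN1 and CCN2, matrix proteins induced by YAP, were at 0.98 and 0.60. MYL9, a myosin light chain of contractile fibres, was at 0.91 (8.02, 8.55 and 8.04 against 7.21, 7.50 and 7.16; adjusted p = 0.000681). A dimmer MYL9 probe differed by 0.32. Vimentin, VIM, was not called (0.14, adjusted p = 0.299). TEAD4, a DNA-binding partner of YAP, was lower at -0.79 by its brightest probe, while dimmer probes differed by 0.33 and -0.03. Epithelial junction genes did not oppose this as a group, with 1 of 7 measured higher (14.3%) and 2 lower (28.6%). The junction gene DSP was lower at -0.63 by its brighter probe, while a dimmer probe differed by -0.11. CDH1 (-0.10, adjusted p = 0.356) and EPCAM (0.04, adjusted p = 0.758) were not called, CLDN3 was lower (2.36-fold; 5.99, 5.91 and 5.74 against 6.91, 7.17 and 7.29) and CLDN7 higher at 0.66. Among 7 measured keratins 2 were higher (28.6%, against 14.8% of all genes) and 2 lower (28.6%, against 19.2%). Lower were KRT7 and KRT80, at -0.30 and -0.32, with calls lost under 6 and 5 of 24 alternatives. The keratins KRT18 and KRT34 were 1.91-fold and 2.27-fold higher in Wip1SH. Against WT these 2 were at -0.13 and -0.19 in Wip1SH and at -1.06 and -1.38 in WT+ATMi. The dimmer KRT18 probe differed by 0.20, and WT+ATMi replicate 2 read 9.29 where the other replicates of its group read 8.54 and 8.55.

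Of 14 histone variants and their chaperones, 7 were lower in Wip1SH (50%, against 19.2% of all genes) and 2 higher. The histone chaperone ASF1B read 8.04, 7.999 and 8.08 against 9.63, 9.24 and 9.45 (2.64-fold lower; adjusted p = 2.65e-06), and CHAF1A and CHAF1B, subunits of the CAF-1 chaperone, were at -0.85 and -0.56. ASF1A, the paralogue of ASF1B, and the variant gene MACROH2A1 were higher, at 0.43 and 0.22. Of 11 Polycomb genes 3 were lower (27.3%) and 1 higher. CBX2, a subunit of Polycomb repressive complex 1, was 2.41-fold lower (7.35, 7.02 and 7.33 against 8.49, 8.54 and 8.46; adjusted p = 5.10e-06), and EZH2 was not called (-0.24, adjusted p = 0.185). JARID2, a partner of Polycomb repressive complex 2, was higher at 0.26. With equal array medians over all probes none of ASF1A, MACROH2A1 and JARID2 was called. The calls of MACROH2A1 and JARID2 were lost under 12 and 8 of 24 alternatives. Dimmer MACROH2A1 probes, each detected on all 12 arrays, differed by 0.30 and 0.66. Of 9 measured DNA methylation genes 1 was higher (11.1%, against 14.8% of all genes) and 2 lower (22.2%, against 19.2%). Lower were the maintenance methyltransferase DNMT1 at -0.52 and UHRF1 at -0.58, and TDG was higher at 0.51. UHRF1 was not called with the mean of its probes (-0.23), nor TDG with equal array medians over all probes (0.31). Among reprogramming factors 3 of 12 were measured, and KLF4 (1.59-fold; 9.87, 9.90 and 9.89 against 9.16, 9.20 and 9.29) and KLF5 were higher and PODXL lower. A dimmer KLF4 probe differed by 0.31. The KLF5 call was lost without WT+ATMi replicate 2 (0.35) or Wip1SH replicate 1 (0.44) or 2 (0.48).

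Inflammatory and glucose genes gave single large differences within mixed lists, whereas metal-response genes were mostly higher. IL32, a cytokine gene, was undetected in Wip1SH and at least 2.56-fold lower, and IRF1, an interferon regulatory factor, was 2.57-fold lower (6.73, 6.52 and 6.82 against 8.38, 7.73 and 8.05; adjusted p = 0.000173). Against WT, IL32 was at least 2.89-fold lower in Wip1SH and at -0.17 in WT+ATMi, and IRF1 was at -0.06 and 1.30. NFKBIA, which holds NF-κB in the cytoplasm, was 1.77-fold lower. The 25 measured interferon and NF-κB genes divided evenly, with 6 higher (24%, against 14.8% of all genes) and 6 lower (24%, against 19.2%). Higher were, among others, ISG20 at 0.86, CXCL8 at 0.40, HLA-B at 0.32 and TNFAIP3, detected on 7 of the 12 arrays. The CXCL8 and HLA-B calls were lost with equal array medians over all probes (0.22 and 0.13). Of 7 metal-response genes 5 were higher (71.4%, against 14.8% of all genes) and 0 lower, including MTF1, the factor that activates metallothioneins, at 0.95, and MT1G at 0.85. Metallothionein genes are close copies, and their probes may share signal. Glycolysis and hypoxia genes were lower in 7 of 18 (38.9%, against 19.2% of all genes), led by ALDOC, aldolase C, 2.46-fold (8.03, 8.03 and 7.94 against 9.44, 9.28 and 9.18; adjusted p = 4.82e-06). BNIP3L, a mitophagy receptor gene, and PKM, pyruvate kinase, were called higher at 0.49 and 0.37, and neither with equal array medians over all probes (0.31 and 0.16). The PKM call was also lost without WT+ATMi replicate 1 or 3 or Wip1SH replicate 2 (0.30 to 0.35). Dimmer PKM probes, each detected on all 12 arrays, differed by 0.94 and 0.84. SLC2A3, the glucose transporter GLUT3, was 1.76-fold lower than in WT+ATMi and below WT in both groups, at -1.35 and -0.53.

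Genes of growth and basic metabolism showed smaller or fewer differences. MYC did not pass the threshold, at 11.74, 11.68 and 11.88 against 11.83, 11.67 and 11.85 (log2 difference -0.02, 95% interval -0.20 to 0.17; adjusted p = 0.914), and was at -0.34 and -0.32 against WT. Among 28 genes of the MYC and ribosome biogenesis list 7 were lower (25%, against 19.2% of all genes), such as the transferrin receptor TFRC at -0.98 and MXD3, a MAX partner, at -1.17. The 3 called higher were MXD1, another MAX partner, at 0.75, ODC1, the rate-limiting enzyme of polyamine synthesis, at 0.30 and RRN3, an initiation factor of RNA polymerase I, at 0.26. The ODC1 and RRN3 calls were lost under 5 and 12 of 24 alternatives. Of 32 ribosomal protein genes 2 were higher and 2 lower (6.25% each, against 14.8% and 19.2% of all genes), with a median of -0.02. RPS7 was the exception in size, at 0.89 (11.15, 11.07 and 11.11 against 10.22, 10.29 and 10.14; adjusted p = 5.73e-06), with its second probe at 0.83 and with Wip1SH at 0.00 and WT+ATMi at -0.89 against WT. The probes of RPL3 disagreed, at 0.22 and -0.55. Of 33 subunits of oxidative phosphorylation 1 was higher (3.03%, against 14.8% of all genes) and 5 were lower (15.2%, against 19.2%). The other 27 were not called, and the list median was 0.03. Of 9 measured autophagy genes 2 were higher (22.2%, against 14.8% of all genes) and 2 lower (22.2%, against 19.2%). Higher were MAP1LC3B, whose product LC3B marks autophagosomes, 1.77-fold (adjusted p = 6.85e-05), and GABARAPL1 at 0.57. Lower were the cargo receptor gene SQSTM1 at -0.58 and ATG2A at -0.66.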

How the data were processed

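Total RNA of 12 cultures was labelled as biotinylated cRNA and hybridised to 1-colour Illumina HumanHT-12 v4 bead arrays, per the labels' protocols. The authors deposited probe signals as intensity on a linear scale without normalization and, beside each, a detection p-value against negative controls, per the file headers. The authors also deposited log2 values, which are used here. How these were normalized is stated nowhere in the labels or headers used, but they lie within 5e-06 of values computed with the neqc method of limma 3.58.1 (R 4.3.3) with an offset of 16, which subtracts background, quantile-normalizes and takes log2.

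Of 47323 probes, 30113 carried 1 gene symbol, 8 several, and 17202 were not named here. Symbols were updated through the entrez identifier for 30074. Probes with a detection p under 0.05 on at least 3 of the 12 arrays were kept (15772 named). The probe with the highest mean stood for each of 11785 genes, of which 3150 had several. A gene with no probe detected on any array of a group has only a bound there. Bounds ("at least N-fold") set the brighter group's mean against the lowest detected signal of each array in the dim group. With limma (lmFit, eBayes), 1 mean per group was estimated from all 12 arrays; two-sided p-values were adjusted over the 11785 genes by Benjamini-Hochberg, with a threshold of 0.05. The number of arrays limits the precision, with a median standard error of 0.11. Probe coordinates are not given, since the sources name no build.

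The genes, lists and tests were chosen with earlier results of these data known, so list counts and medians are descriptions and no list was tested. PPM1D, ATM, CDKN1A, MDM2 and MYC were named whatever their values, and 1 further gene of that rule was not analysed here. The rule adds the 15 largest differences in each direction among called genes with non-overlapping arrays, up to 4 called members per list and direction with the smallest adjusted p, and other list members to fill out a list. Alternatives were other background corrections, scalings, detection filters and probe summaries, array weights, the 6 arrays alone, the replicate number as a block, detected probes as a covariate, a fold threshold and each array left out. In simulated data with the observed variances, 200 of 11785 genes were changed. There the fit recovered 85% of the log2 changes of 1 and 50% of those of 0.5, and 4.26% of calls were false. The real comparison gave 4010 calls. The adjustment is stricter where fewer genes change, so the simulated shares do not carry over to it. The same-numbered arrays of the groups deviated from their group means almost independently (correlations 0.03, 0.02 and 0.01), so the numbers were not used to pair them.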

Additional observations from a re-analysis of the deposited data

How the results depend on the processing

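Of the 163 named genes past the threshold, 126 were called under all of 24 alternatives other than the fold threshold, and 23 lost their call with equal array medians over all probes, 17 with detected probes as a covariate and 0 to 18 when an array was left out. Leaving out each array in turn gave 1318 to 1788 genes higher, 1875 to 2280 lower and 252 to 278 at least 2-fold apart. The count of 2-fold differences was 116 with an offset of 50 after background correction and 68 with none, since both compress differences of dim probes. With equal array medians over all probes, 560 genes were higher. When tested against a 2-fold difference, 11 were higher and 23 lower, 34 in all. Using the replicate number as a replicate block gave 1725 higher, 2223 lower and 260 at least 2-fold apart, and only Wip1SH arrays 1 and 2 correlated best with their own number. The slide could not be used as a block, because the file headers give none. Signs reversed for genes with small differences. With equal array medians over all probes, RPL3 was at -0.00504 and ATP5PB at -0.049. With the mean of a gene's probes, RPL3 was at -0.16, ATP5PB at -0.064, MYC at 0.10 and CDKN1A at 0.20, the last past the threshold, since its dim probe differed the other way. CDKN1A was called under 7 of the 24 alternatives, and in the others of these 7 it was lower in Wip1SH. Its difference ranged from -0.37 to 0.20 over the 24. MYC was at 0.049 with equal medians over the tested probes and at 0.053 with the covariate, and between -0.072 and 0.029 with an array left out. The medians of 14 of 23 lists kept their sign under all alternatives, including the p53, ATF4, replication, mitosis, NRF2, lipid, Wnt and mesenchymal lists. Those of 9 changed sign, each from a value near 0. Dim probes set what could be seen, and genes undetected in a group have only bounds.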

Other observations

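Among 5425 detected probes that carry no gene symbol in the sources used here, 293 had a higher and 269 a lower level in Wip1SH at an adjusted p under 0.05 in limma, and they are not described further.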
